A study of Homo sapiens with 2 samples.

Results

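The genes of the mitochondrial ribosomal proteins were examined in HT1080 cells, a human fibrosarcoma line, after 24 h in wells coated with rLCC111 or with BSA. rLCC111 is a recombinant heterotrimer of the coiled-coil parts of the mouse laminin α1, β1 and γ1 chains, and BSA, bovine serum albumin, served as the control coating. Each group was the same line, grown in DMEM with fetal calf serum, and 1 array was hybridised for rLCC111 and 1 for BSA. Members were all genes whose symbol is MRPL or MRPS followed by a number and, in some, by the letter A, B or C. There were 73 of them among 18417 genes measured, 48 with an MRPL and 25 with an MRPS symbol. Another 4 genes that carry such a symbol, MRPL51, MRPS6, MRPS24 and MRPS28, shared their sequence on the array with a second gene and were not counted. Values are log2 expression levels as deposited, and a difference is the level on rLCC111 minus that on BSA. With 1 array per coating no difference has a replicate check, so no p-value is given, and each value describes these arrays alone.

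Mitochondria keep a genome of their own, and a dedicated ribosome, the mitoribosome, translates its messengers into core subunits of the respiratory chain and of ATP synthase. Its RNA is made from mitochondrial DNA, whereas its proteins are encoded in the nucleus, made in the cytosol and imported. The small subunit (MRPS) binds and decodes the messenger, and the large subunit (MRPL) joins the amino acids. Some of these proteins have a homologue in the bacterial ribosome, and others were added in mitochondria.

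The medians over all 33297 sequences were 7.12 on the rLCC111 array and 7.04 on the BSA array. A level of 6.62, the 95th percentile of 379 olfactory, taste and related receptor genes, was taken as the limit of silent genes, and 12514 genes lay above it on average. Of the markers used to check the line, all 6 mesenchymal genes, VIM and FN1 among them, lay above the limit, while none of the 4 epithelial, 3 blood and 4 endothelial genes measured did. A bulk array cannot tell fewer expressing cells from less RNA per cell.

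Most mitochondrial ribosomal protein genes were slightly lower on rLCC111 than on BSA. Of the 73 members, 64 had a difference below 0 and 9 above 0, against 46.6% of all genes below 0 and 46.2% above it. Among the genes above the limit, to which all 73 members belonged on each array, 50.5% were below 0 and 46.5% above it. The median difference of the members was -0.11 (quartiles -0.19 and -0.05), a fold of 0.924, and that of all genes was 0.00. The sizes were small. No member was 2-fold different. Such differences were rare in general. At least 2-fold lower were 0.0869% of all genes and 0.128% of those above the limit, and at least 2-fold higher 0.239% and 0.264%. At these shares a count of 0 among 73 genes does not set the members apart. A difference of at least 0.25 on the log2 scale, a fold of 0.841 or 1.19, was found in 12 members on the lower side, or 16.4%, against 6.53% of all genes and 7.91% of those above the limit. On the higher side 1 member, MRPS25, reached it, against 7.49% of all genes and 8.55% of those above the limit. These counts depend on the scaling of the arrays. Median centring, which moved every gene by -0.08, gave a member median of -0.19 and 23 members at least 0.25 lower (31.5%), against 13.2% of all genes and 15.6% of those above the limit. Below 0 were then 71 members (97.3%) and 73.6% of all genes, and after quantile normalization 63 members (86.3%) and 65.8% of all genes.

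**Figure D1:**
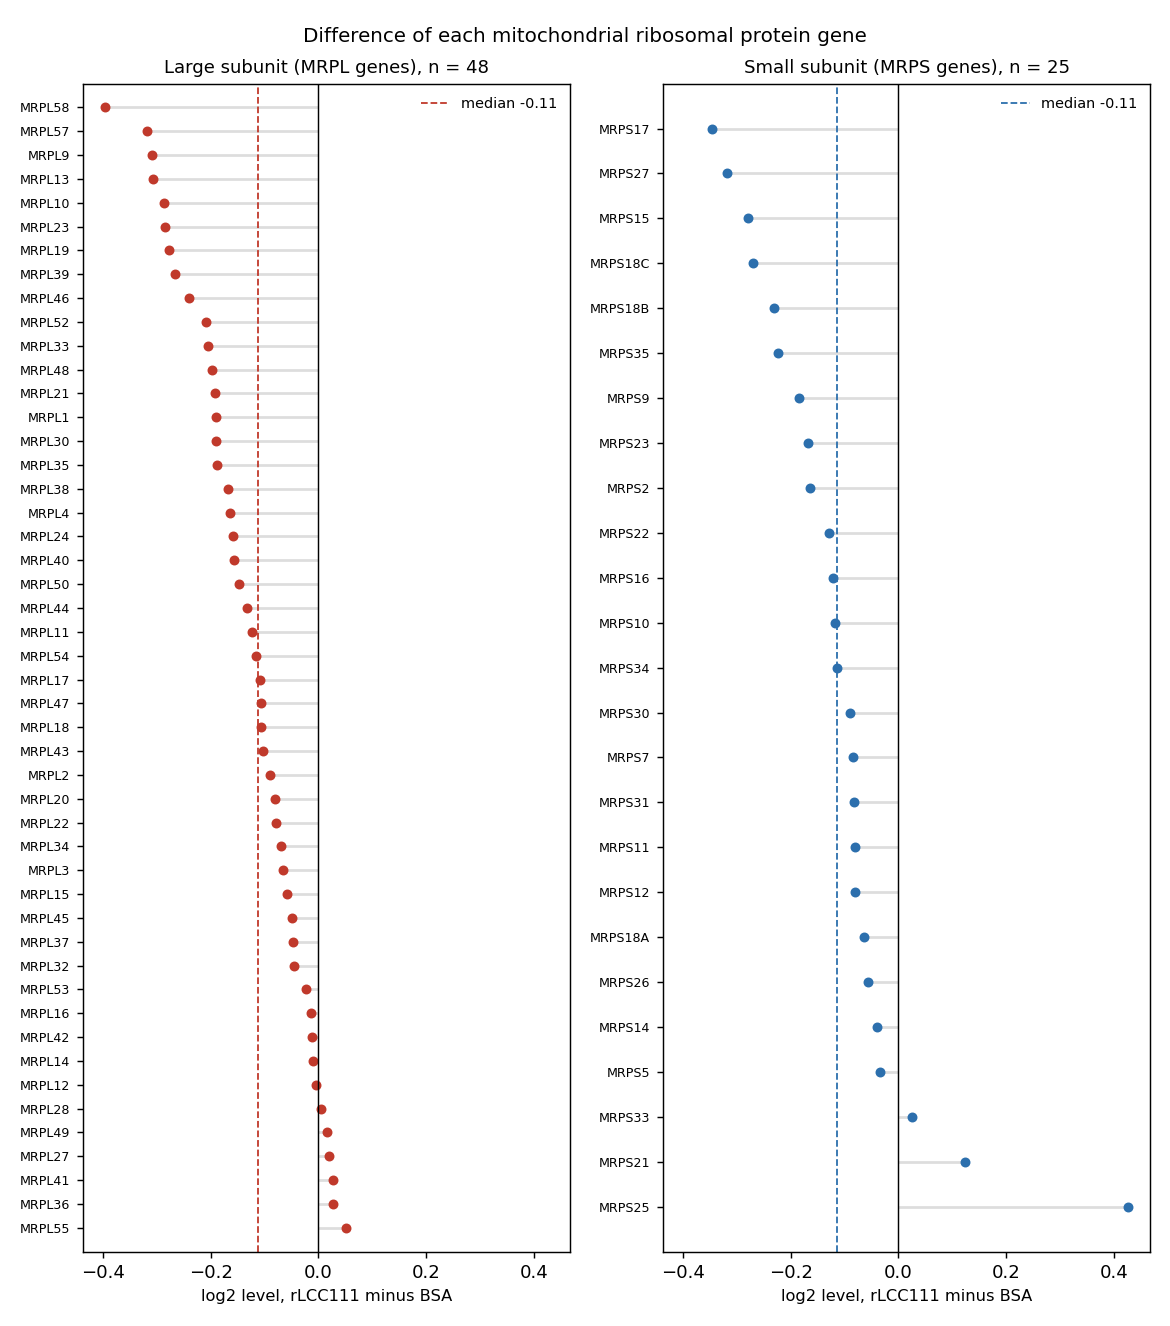
Log2 difference, rLCC111 minus BSA (horizontal), of each MRPL gene (left, n = 48) and each MRPS gene (right, n = 25), 1 array per coating; dashed lines are the medians. Points lie left of 0 for 42 MRPL and 22 MRPS genes, and MRPS25, at 0.43, stands alone on the right.

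The lower values were not limited to dim or to bright signals, although bright genes in general leaned the same way. Genes with a mean level from 10 to 11 had a median difference of -0.04 (n = 2137), and the 25 members in that range had -0.11, with 22 of them below 0. From 11 to 12 the medians were -0.08 for 12 members and -0.05 for all 1107 genes. From 9 to 10, 16 of 17 members were below 0, with a median of -0.12 against -0.01 for 2543 genes, and from 8 to 9 the values were -0.15 for 14 members and 0.01 for 2504 genes. After the trend of the difference with level had been removed by lowess, the median of the members was -0.09, that of all genes -0.02, and 60 members were below 0 (82.2%), against 55.8% of all genes and 52.9% of those above the limit under the same correction. Across the 73 members the difference and the mean level had a Pearson r of 0.19 and a Spearman rho of 0.22, a description over genes that share the same arrays.

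**Figure D2:**
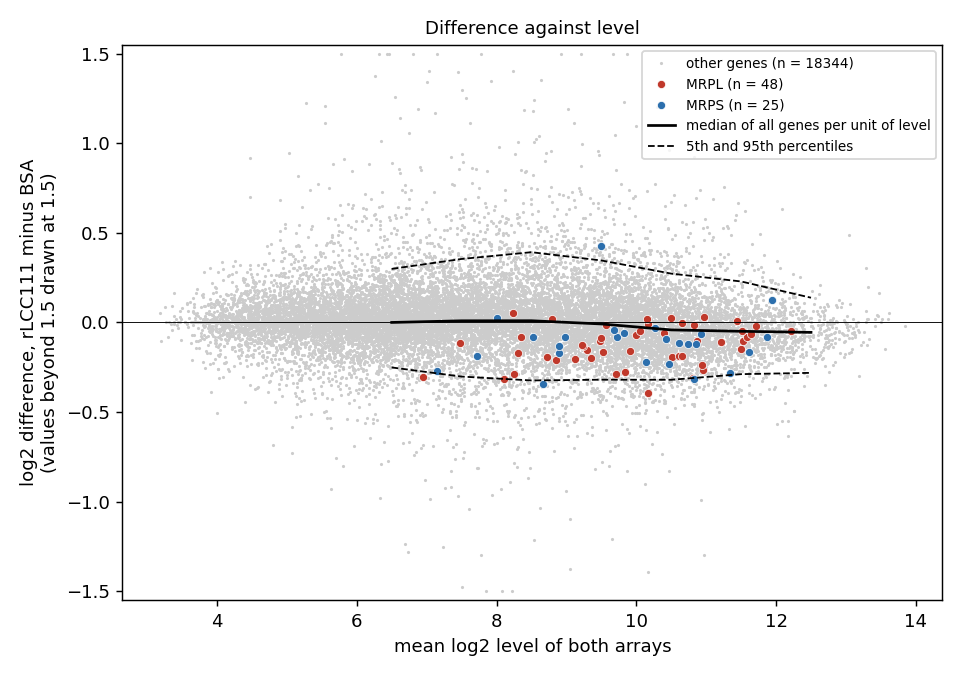
Log2 difference, rLCC111 minus BSA (vertical), against the mean log2 level of the arrays (horizontal) for MRPL genes (red, n = 48), MRPS genes (blue, n = 25) and all other genes (grey); the solid line is the median and the dashed lines the 5th and 95th percentiles of all genes per unit of level. Most members lie between the median and the lower dashed line.

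The large and the small subunit had the same median to 2 decimals. MRPL genes had a median difference of -0.11, with 42 of 48 below 0, and MRPS genes a median of -0.11, with 22 of 25 below 0. The difference between the medians, large minus small, was 0.0017 on the log2 scale, far inside the spread of genes within each subunit (SD 0.109 for the 48 MRPL and 0.154 for the 25 MRPS genes). Its sign turned, to -0.021 after removal of the lowess trend and to -0.042 after quantile normalization, so no order of the subunits can be read from it. At least 0.25 lower were 8 MRPL and 4 MRPS genes. Symbols do not always tell the place of a protein: MRPS30 and MRPS18A were named for the small subunit, but structures of the human mitoribosome place them in the large one. With these moved, the medians were -0.11 for 50 large subunit and -0.12 for 23 small subunit genes. Members listed as bacterial homologues and members listed as specific to mitochondria also lay close together. The 43 on the bacterial list had a median of -0.11 with 38 below 0. The 30 on the mitochondrial list had a median of -0.12 with 26 below 0. MRPS18A and MRPS18B, although relatives of bacterial S18, were counted among these 30.

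The member with the lowest difference was MRPL58, also known as ICT1, which belongs to the family of release factors, is built into the large subunit and frees the chain from stalled ribosomes. Its level was 9.97 on rLCC111 and 10.36 on BSA, a fold of 0.760. MRPS17, a homologue of the bacterial RNA-binding protein S17, was at 8.49 on rLCC111 and 8.84 on BSA, a fold of 0.787. MRPS27, a pentatricopeptide repeat protein of the small subunit, was at 10.67 on rLCC111 and 10.99 on BSA, a fold of 0.803. These and the next 2, MRPL57 and MRPL9, were the 5 of 73 members below the 5th percentile of the genes above the limit, a difference of -0.309. That share is near the 5% of genes that lie below this percentile by definition, and MRPL9, at -0.309, lay on the cut. MRPL57, specific to mitochondria, was at 7.94 on rLCC111 and 8.26 on BSA. MRPL9, a homologue of bacterial L9, was at 10.65 on rLCC111 and 10.96 on BSA. MRPL13, a homologue of bacterial L13, was at 6.79 on rLCC111 and 7.10 on BSA, the first of these close to the limit of silent genes, and had a fold of 0.808. MRPS15, MRPL19, MRPL10, MRPL23, MRPS18C and MRPL39 completed the 12 members at least 0.25 lower, with folds from 0.820 to 0.832. The order among these members rests on steps of a few hundredths and has no replicate to back it.

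Members at the other end hardly differed between the arrays, with 1 exception. MRPS25, a small subunit protein specific to mitochondria, was at 9.71 on rLCC111 and 9.29 on BSA, a difference of 0.43 and a fold of 1.34. It was the 1 of 73 members above the 95th percentile of the genes above the limit, a difference of 0.33 that 5% of those genes exceed by definition. In the current annotation MRPS25 overlaps NR2C2, a nuclear receptor gene, which was at 10.73 on rLCC111 and 10.60 on BSA; whether signal of NR2C2 entered that of MRPS25 was not tested. MRPS21, a homologue of bacterial S21, was at 12.01 on rLCC111 and 11.88 on BSA, a fold of 1.09. The next were MRPL55, at 8.26 on rLCC111 and 8.21 on BSA, MRPL36, at 10.98 on rLCC111 and 10.96 on BSA, and MRPL41, at 10.51 on rLCC111 and 10.49 on BSA. MRPS33, MRPL27, MRPL49 and MRPL28 completed the 9 members above 0, with differences from 0.005 to 0.02. After median centring of the arrays only MRPS25 and MRPS21 were above 0. Without MRPS25 the median of the members was again -0.11.

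**Figure D3:**
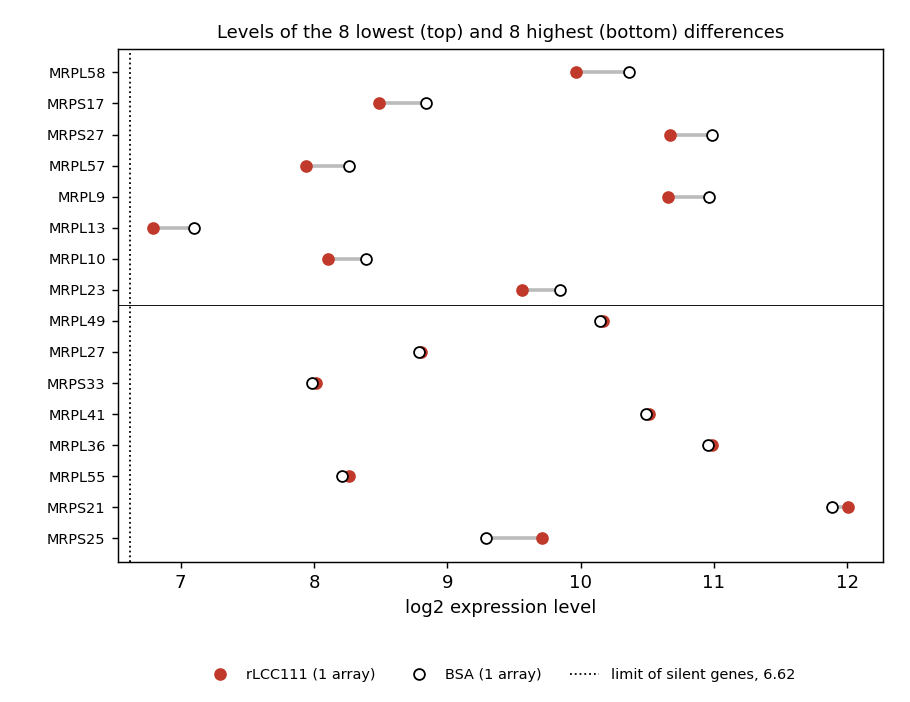
Log2 level on rLCC111 (red) and on BSA (open) of the 8 members with the lowest (top) and the 8 with the highest difference (bottom), 1 array per coating; the dotted line is the limit of silent genes, 6.62. In the top rows every red point lies left of its open point, and in the bottom rows only MRPS25 and MRPS21 show a clear gap to the right.

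Within the large subunit, members were compared by their place in the structure, in groups that were formed after the values had been seen. For the central protuberance, which contacts the small subunit, 6 mitochondria-specific members were taken, and members with a bacterial homologue were left out. All 6 were lower on rLCC111, with a median of -0.20, but so were 87.7% of all 73 members. Besides MRPL58 these were MRPL46, at 10.82 on rLCC111 and 11.06 on BSA, MRPL52, at 8.75 on rLCC111 and 8.96 on BSA, and MRPL48, MRPL38 and MRPL40 with folds of 0.872, 0.890 and 0.897. Of the 30 large subunit members listed as bacterial homologues, from which none was taken here, 4 were above 0, MRPL27 and MRPL55 among them. The median of -0.20 thus describes the 6 picked members and not the whole central protuberance. Around the exit of the tunnel through which the new chain leaves, all 6 members chosen were below 0 as well, with a median of -0.11. Among them MRPL23 had the lowest difference, with 9.56 on rLCC111 and 9.85 on BSA, and MRPL45, which holds the ribosome at the inner membrane, the smallest one, with 12.18 on rLCC111 and 12.23 on BSA. The groups hold too few genes for their medians to be told apart.

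The proteins of the stalks, which guide translation factors and transfer RNA, were uneven. MRPL10, which anchors the flexible stalk, was at 8.10 on rLCC111 and 8.39 on BSA, a fold of 0.820. MRPL12, the protein of the stalk itself, which is also known to bind the mitochondrial RNA polymerase, was at 10.65 on each coating, with a difference of -0.004 that became 0.04 after removal of the lowess trend and 0.02 after quantile normalization. MRPL11, at the base of the stalk, had a fold of 0.918. MRPL1, of the opposite stalk, was at 8.63 on rLCC111 and 8.82 on BSA.

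Human cells have 3 mitochondrial relatives of bacterial S18 among the members. MRPS18C was at 7.01 on rLCC111 and 7.28 on BSA, a fold of 0.829. MRPS18B was at 10.35 on rLCC111 and 10.58 on BSA, a fold of 0.852. MRPS18A, the one placed in the large subunit, was at 10.90 on rLCC111 and 10.96 on BSA, a fold of 0.957.

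Other members were chosen for strong or weak signals on the arrays. Signals of different genes depend on their probes and are not compared with each other. MRPL3, a neighbour of the catalytic centre, had a fold of 0.956. MRPL53 had one of 0.985, and its difference of -0.02 turned to 0.02 after removal of the lowess trend and to 0.005 after quantile normalization. In the small subunit MRPS2, a homologue of bacterial S2, was at 11.53 on rLCC111 and 11.69 on BSA, and MRPS11 at 11.83 on rLCC111 and 11.91 on BSA. MRPS9 had a fold of 0.880 and MRPL54 one of 0.923. Among the members below 0 that are not given with levels, differences lay between -0.28, for MRPS15, and -0.01, for MRPL14.

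Promoters of the members shared letters that the rule for members did not use. Promoter sequences of RefSeq (GRCh38.p14), 250 bases before and 50 after the start of a gene, were at hand for 66 of the 73 members and for 15842 protein-coding genes in all, and were searched on both strands. CCGGAAG, the core bound by ETS factors such as GABPA, was found in 28 members, or 42.4%, against 14.2% of all genes. AAGATGGC, bound by YY1, was found in 18 members, or 27.3%, against 3.91% of all genes. Both were held by 7 members, or 10.6%, against 0.903% of all genes. The ETS core ends and the YY1 core begins with AAG, so matches could overlap, but none did in these 7 members. CGCATGCG, the core of the NRF1 site, was found in 3 members (4.55%, against 2.88% of all genes), the E-box CACGTG in 6 (9.09%, against 8.88%) and the CREB site TGACGTCA in 0 of 66, against 2.59% of all genes. Of the 37 ETS matches in members 33 lay within 100 bases of the start, with a median position of -18. Of the 19 YY1 matches 17 did, with a median of 13. Positions in the promoters of other genes are not given, so these places are not shown to be particular to the members. The YY1 letters contain ATG, which is also the start codon, and matches behind the start can lie on it. A match is a run of letters and not a shown binding site.

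Members with and without the ETS core, and with and without the YY1 core, had medians close to each other. The median difference was -0.11 for the 28 members with the ETS core and -0.11 for those without, and -0.09 for the 18 members with the YY1 core against -0.11 for those without. The gap was wider for the E-box, with -0.05 for the 6 members that hold it and -0.11 for those without. For NRF1 the medians were -0.11 for 3 members with the core and -0.11 for those without. Groups of 3 and 6 genes are too small to compare. The promoters of 4 members picked near the ends of the range are shown: MRPL58 and MRPS27 at the lower end and MRPS21 and MRPS25 at the higher end. MRPS17, which lay between MRPL58 and MRPS27, is not shown. Each is written 5′ to 3′ on the strand of its gene, with the searched motifs in capitals. MRPL58 (chr17:75012420-75012719, plus strand) has 2 ETS cores, centred at positions -190 and -5 from the start. MRPS27 (chr5:72320191-72320490, minus strand) has 1 YY1 core, centred at position 20. MRPS21 (chr1:150293611-150293910, plus strand) has 2 ETS cores, centred at positions -8 and 10, and MRPS25 (chr3:15065266-15065565, minus strand) has none of the 5 motifs. Of these 4 picked promoters, those of MRPL58 and MRPS21 hold the ETS core and those of MRPS27 and MRPS25 do not.
MRPL58: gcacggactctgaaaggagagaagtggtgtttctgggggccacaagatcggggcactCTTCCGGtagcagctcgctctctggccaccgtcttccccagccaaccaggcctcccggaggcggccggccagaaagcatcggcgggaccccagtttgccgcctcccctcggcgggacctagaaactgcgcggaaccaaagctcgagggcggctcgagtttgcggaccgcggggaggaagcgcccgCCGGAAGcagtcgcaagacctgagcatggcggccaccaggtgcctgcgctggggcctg
MRPS27: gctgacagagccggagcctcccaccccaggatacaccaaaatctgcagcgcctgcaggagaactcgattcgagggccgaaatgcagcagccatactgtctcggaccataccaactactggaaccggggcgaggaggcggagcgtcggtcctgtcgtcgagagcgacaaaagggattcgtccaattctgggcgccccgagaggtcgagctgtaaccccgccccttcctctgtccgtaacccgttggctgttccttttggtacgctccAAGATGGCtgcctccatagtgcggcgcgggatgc
MRPS21: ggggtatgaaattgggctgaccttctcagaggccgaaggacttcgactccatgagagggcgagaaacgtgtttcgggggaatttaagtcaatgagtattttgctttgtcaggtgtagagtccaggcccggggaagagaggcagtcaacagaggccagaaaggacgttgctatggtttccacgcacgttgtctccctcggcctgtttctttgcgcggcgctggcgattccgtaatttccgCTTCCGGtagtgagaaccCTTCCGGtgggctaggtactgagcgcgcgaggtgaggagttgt
MRPS25: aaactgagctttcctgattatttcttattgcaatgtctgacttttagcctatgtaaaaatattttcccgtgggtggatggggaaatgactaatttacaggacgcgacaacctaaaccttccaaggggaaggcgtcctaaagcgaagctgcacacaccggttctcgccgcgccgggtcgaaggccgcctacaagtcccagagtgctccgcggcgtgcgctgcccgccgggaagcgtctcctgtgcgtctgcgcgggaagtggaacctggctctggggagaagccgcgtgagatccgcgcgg

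**Figure D4:**
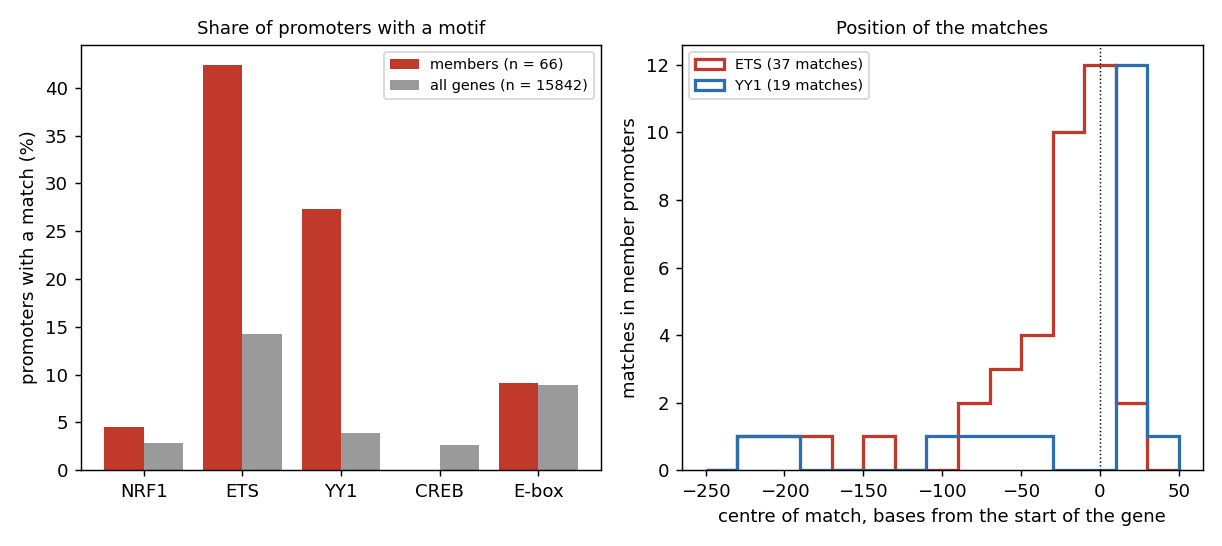
Left, share of promoters (%) with at least 1 match to each of 5 motifs, for the members (red, n = 66) and for all protein-coding genes (grey, n = 15842). Right, distance in bases from the start of the gene to the centre of each match in member promoters for the ETS (37 matches) and YY1 cores (19 matches); most lie close to the start.

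Of the 66 members with a promoter entry, 17, or 25.8%, started within 1000 bases of a gene on the other strand that runs away from them, against 10.3% of all protein-coding genes. MRPL46 and MRPS11 formed such a pair with each other, their starts 320 bases apart, and had differences of -0.24 and -0.08. The other 15 had a partner outside the group, and these partners had a median difference of -0.04, while the 15 members had -0.15. Of the 15 partners 10 were below 0, against 46.6% of all genes and 50.5% of those above the limit. The lowest partner was SKA3, of the mitotic spindle, which was at 10.71 on rLCC111 and 11.07 on BSA, beside MRPL57. Nearly as low was EME1, at 8.41 on rLCC111 and 8.77 on BSA, but it lies beside MRPL27, which had a difference of 0.02. PTCD2, whose start lies 133 bases from that of MRPS27, was at 9.33 on rLCC111 and 9.14 on BSA, so the lower level of MRPS27 was not shared by its neighbour. MRPS12 and SARS2, the mitochondrial seryl-tRNA synthetase, had folds of 0.946 and 0.985.

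Mitoribosomal proteins that carry other names were described separately. CHCHD1, of the small subunit, was at 8.40 on rLCC111 and 8.64 on BSA, a fold of 0.844. GADD45GIP1, of the large subunit, and PTCD3, a pentatricopeptide repeat protein of the small subunit, had folds of 0.959 and 0.969. DAP3, a GTP-binding protein of the small subunit also known for its part in cell death, was at 9.75 on rLCC111 and 9.71 on BSA. The median of these 4 was -0.05.

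Other genes of mitochondrial translation also lay mostly below 0, with medians closer to it than that of the members. Below 0 were 46.6% of all genes and 50.5% of those above the limit. The lists are short, and the lowest share below 0, 62.5% of the mitochondrial aminoacyl-tRNA synthetases, is not far from these. Of 13 translation factors 12 were below 0, with a median of -0.08 and none at least 0.25 lower. TACO1, an activator of the synthesis of a cytochrome oxidase subunit, was the lowest, with a difference of -0.19, and the release factor gene MTRF1 the highest, with 0.003. Of 27 assembly factors 19 were below 0 (median -0.04), from YBEY, an endoribonuclease, with a fold of 0.830, to TFB1M, which methylates the RNA of the small subunit, with 1.10. Of 16 mitochondrial aminoacyl-tRNA synthetases 10 were below 0 (median -0.04), from MARS2 with a fold of 0.889 to EARS2 with 1.14. Of 13 genes of the replication and transcription of mitochondrial DNA 10 were below 0, with a median of -0.12, near that of the members. The protease gene LONP1 had a fold of 0.802, TFAM, which packs and activates this DNA, one of 0.840, and TOP1MT one of 1.12. Of 15 mitochondrially encoded genes looked for, 0 were among the genes measured, so ribosomal RNA and messengers made in mitochondria were not analysed here.

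Among 9 nuclear regulators of such genes 6 were below 0, or 66.7%, against 46.6% of all genes, with a median of -0.14. MYC, which drives genes of ribosomes and growth, was at 10.33 on rLCC111 and 10.69 on BSA, a fold of 0.778. GABPB1 and GABPA, which form the ETS factor named above, had folds of 0.836 and 0.909, NRF1 one of 0.898 and the coactivator PPRC1 one of 0.901. YY1 had a difference of 0.002 and the receptor ESRRA one of 0.14. The coactivator PPARGC1A was at 6.76 on rLCC111 and 6.17 on BSA, the second of these below the limit of silent genes. Their part in the levels of the members was not tested.

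Cytosolic ribosomal proteins and subunits of oxidative phosphorylation are set beside the members because the first form the other ribosome of the cell and the second are the end of the same mitochondrial pathway. Of 64 cytosolic ribosomal protein genes 53 were below 0, or 82.8%, against 46.6% of all genes and 50.5% of those above the limit. Their median was -0.07, from RPS24 with a fold of 0.771 to RPL23 with 1.11 among those above the limit. These genes were bright, with a median level of 12.11 on rLCC111. All 364 genes with a mean level from 12 to 13 had a median of -0.06, close to that of this list. After removal of the lowess trend the median of the cytosolic ribosomal protein genes was -0.04, against -0.09 for the members. Of 76 nuclear genes of oxidative phosphorylation 37 were below 0 and 36 above it, with a median of 0.00 before and 0.01 after removal of the trend. At least 0.25 lower were 10 of these 76 genes, against 6.53% of all genes and 16.4% of the members. At least 0.25 higher were 0, against 7.49% of all genes. The median of 0.00 thus goes with a lower tail that is longer than the upper one. COX8A had the lowest fold, 0.762, and UQCRC1 the highest, 1.15. With 1 array per coating the differences between these lists were not tested.

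**Figure D5:**
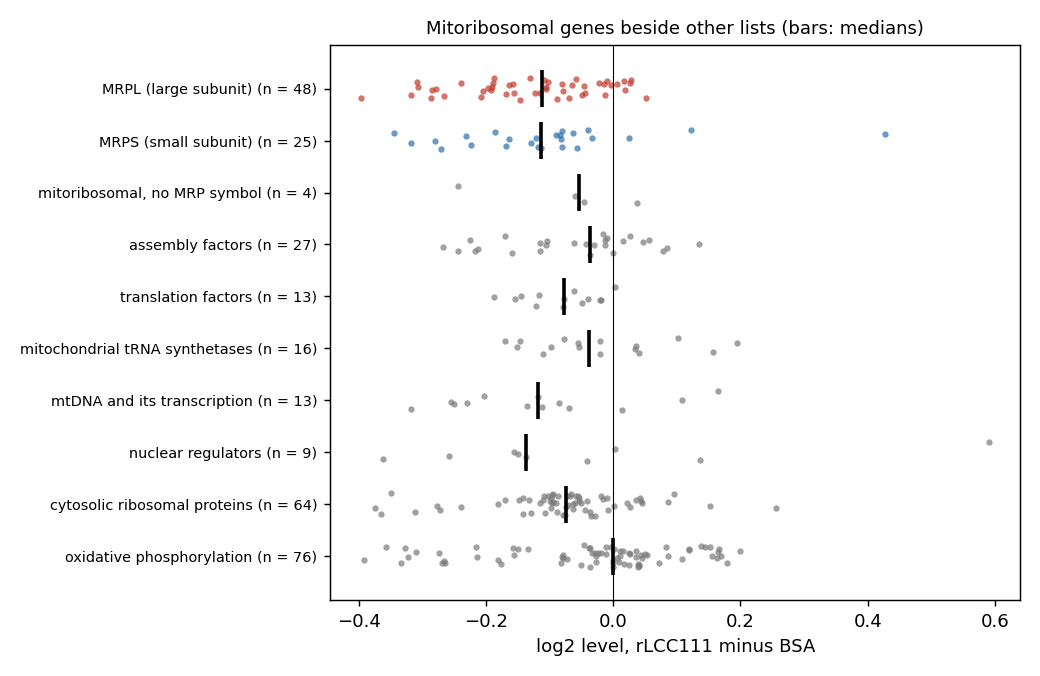
Log2 difference, rLCC111 minus BSA (horizontal), of every gene of 10 lists (points, with random vertical scatter), with the median of each list as a bar and the number of genes beside its name. The bars of MRPL and MRPS genes coincide at -0.11, that of cytosolic ribosomal proteins lies at -0.07 and that of oxidative phosphorylation at 0.00.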

How the data were processed

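Gene expression was measured in HT1080 cells on GeneChip Human Gene 1.0 ST arrays, 1 for rLCC111 and 1 for BSA. The authors used RMA, run in Affymetrix Expression Console, to turn scans into signals. The deposited table holds 33297 log2 levels per array. RMA corrects background, normalizes between arrays and summarises probes. Its settings and version are not given in the sources used here. Depth has no counterpart on arrays, and their number limits the precision. The paper's methods name limma, which cannot be fitted with 1 array per group, so no test was run.

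Gene names came from the annotation of the platform, and older symbols were replaced by those of RefSeq (GRCh38.p14) with the same gene identifier. There were 19460 sequences with 1 symbol, 1754 with several and 12083 with none, and only the first were used. Of several sequences of a gene, the brightest on average stood for it, which gave 18417 genes. Of the members 70 had 1 sequence. No coordinates of array sequences are given, since no build is named for the array, and promoter coordinates are those of RefSeq.

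The members and gene lists were chosen with earlier results of these data known. Members named in the text are the 8 lowest and 8 highest differences, the 3 strongest and 3 weakest signals of each subunit, the S18 relatives and the stalk proteins. In the other lists the lowest and highest members whose brighter array lay above the limit, and the mitoribosomal proteins without an MRP symbol were named. All other genes named, the structural groups, the motifs and the printed promoters were picked once values were known. The results were recomputed with median centring, quantile normalization, a lowess trend (span 0.2, 3 iterations), the mean over sequences, a filter on level, platform symbols, added sequences and other assignments of members. Counting was tested on simulated data. Python 3.11.15 was used with numpy 2.4.6, pandas 2.3.3, statsmodels 0.14.6 and matplotlib 3.10.9.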

Additional observations from a re-analysis of the deposited data

How the results depend on the processing

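No member was 2-fold different under any of the 7 scalings, filters and namings tried, and the median of the members stayed below 0 in all of them. It was -0.19 after median centring of each array, which moved the median of all genes to -0.08, -0.12 after quantile normalization and -0.091 after removal of a lowess trend. Members at least 0.25 log2 units different numbered 24 after median centring and 13 as deposited. Of the 24, 23 were lower (31.5%, against 13.2% of all genes under that centring) and 1 higher, so the larger count goes with a shift of all genes. Members below 0 numbered between 60, after the lowess trend, and 71, after median centring, where 55.8% and 73.6% of all genes were below 0. The difference between the subunit medians, large minus small, was -0.042 after quantile normalization and -0.021 after the lowess trend. Averaging sequences, filtering on level and using platform symbols left these values as they were, and adding the 4 genes on shared sequences gave a median of -0.11 over 77 genes. Of the 28 members named by the rule, 6 changed sign after median centring, 5 after quantile normalization and 3 after the lowess trend. These were MRPL12, MRPL27, MRPL36, MRPL41, MRPL49, MRPL53, MRPL55 and MRPS33, and no named member did so after averaging or filtering. Leaving out MRPS25 was chosen after the values were seen. No paired analysis was possible because there is 1 array per coating.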

Other observations

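The 4 genes whose sequence carries a second symbol had 3 differences above 0 and 1 below it. The sequence of MRPS6 and SLC5A3, a gene of inositol transport that lies at the same locus, was at 10.26 on rLCC111 and 10.04 on BSA, a fold of 1.16. That of MRPL51 and SPTLC1 had a difference of 0.04, that of MRPS24 and its readthrough transcript 0.001 and that of MRPS28 and TPD52 -0.13. Which gene of each pair gave the signal cannot be told from these values.

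Of the 18417 genes, 1325, or 7.19%, had exactly the same deposited value on the rLCC111 and BSA arrays, and none of the 73 members was among them. MRPL20 and MRPS18B are each represented by several sequences with identical values, which therefore count as 1 measurement and give no second reading of the gene. The sequences of MRPL36 differed from each other by less than 0.01 in their difference between the coatings.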
